A study of Mus musculus with 3 samples.

Results

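Neutrophil transcripts were followed in spatial transcriptome sections of mouse heart through 10 genes, S100a8, S100a9, Retnlg, Csf3r, Cxcr2, Il1b, Mmp9, Mmp8, Clec4d and G0s2, chosen by symbol from the 32285 genes of the deposited matrices. All 10 had UMIs (unique molecular identifiers, 1 per captured transcript) in every section. The sections come from C57BL/6 mice that were 8 weeks old when supplied, before acclimatization and gavage. The sham mouse had vehicle by gavage for 7 days and then surgery in which the needle was passed without tying the left anterior descending artery (LAD). The I/R (ischemia-reperfusion) mouse had the same vehicle, 30 min of LAD ligation and 24 h of recanalization. The SBP mouse had Shexiang Baoxin Pill, which the sample label names MUSKARDIA, by gavage for 7 days and then the same ischemia and reperfusion. Each condition has 1 section, so no difference between conditions has a replicate check and no p-value is given, and whether a section stands for 1 animal or pooled animals is not stated in the sources used here.

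Neutrophils are short-lived granulocytes that leave the bone marrow under granulocyte colony-stimulating factor, follow chemokines that bind CXCR2, and are among the first blood cells to enter myocardium after reperfusion. S100A8 and S100A9 pair as calprotectin, the most abundant protein of the neutrophil cytosol, and both are also made by monocytes. Granule proteins are largely transcribed in the bone marrow, so that circulating neutrophils keep few of those messages, whereas receptors, cytokines and S100 messages remain in mature cells. A Visium spot records the RNA of a small piece of tissue and often covers more than 1 cell and cell type.

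The promoters of 4 genes are printed because S100a8 and S100a9 set the pattern that the other genes are compared with, Csf3r had the lowest ratio of SBP over I/R, and G0s2 did not follow them. They are the RefSeq GRCm38.p6 sequences from 250 bases before to 50 bases after the RefSeq start site of each gene, read 5′ to 3′ on the strand of the gene. For S100a8, Csf3r and G0s2 that start site is not the gene start of the annotation used for gene positions. The windows lie at chr3:90668821-90669120 on the plus strand for S100a8, chr3:90695672-90695971 on the minus strand for S100a9, chr4:126024409-126024708 on the plus strand for Csf3r and chr1:193273139-193273438 on the minus strand for G0s2. Capitals mark matches on either strand to GAGGAAGT, a site letter pattern of PU.1, to TNNNGCAA, a pattern of the C/EBP family, or to the consensus of NF-kB. PU.1 and C/EBP factors drive myeloid genes, and NF-kB acts downstream of interleukin-1.
S100a8: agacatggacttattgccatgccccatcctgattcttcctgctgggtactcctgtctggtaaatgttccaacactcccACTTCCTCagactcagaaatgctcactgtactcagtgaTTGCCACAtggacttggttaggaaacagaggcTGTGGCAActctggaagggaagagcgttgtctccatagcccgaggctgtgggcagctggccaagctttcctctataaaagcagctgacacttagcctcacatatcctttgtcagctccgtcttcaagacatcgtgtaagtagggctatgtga
S100a9: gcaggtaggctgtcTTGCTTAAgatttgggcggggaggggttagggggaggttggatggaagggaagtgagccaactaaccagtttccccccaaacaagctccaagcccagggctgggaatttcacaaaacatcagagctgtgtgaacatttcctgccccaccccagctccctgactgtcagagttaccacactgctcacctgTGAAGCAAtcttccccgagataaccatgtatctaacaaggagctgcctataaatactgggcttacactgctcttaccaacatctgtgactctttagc
Csf3r: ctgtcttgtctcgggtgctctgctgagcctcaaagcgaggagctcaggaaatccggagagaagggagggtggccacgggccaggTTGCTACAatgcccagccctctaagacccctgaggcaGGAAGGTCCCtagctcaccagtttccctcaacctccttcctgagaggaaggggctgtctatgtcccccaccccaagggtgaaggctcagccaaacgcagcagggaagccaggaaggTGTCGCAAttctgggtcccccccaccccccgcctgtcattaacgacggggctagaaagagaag
G0s2: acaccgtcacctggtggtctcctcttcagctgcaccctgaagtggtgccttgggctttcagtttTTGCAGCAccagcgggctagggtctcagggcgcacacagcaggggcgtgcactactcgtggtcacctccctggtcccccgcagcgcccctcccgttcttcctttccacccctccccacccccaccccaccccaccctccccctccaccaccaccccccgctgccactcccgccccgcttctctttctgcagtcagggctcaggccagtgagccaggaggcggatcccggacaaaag
Matches to the C/EBP pattern were found in 7 of the 9 members with a RefSeq promoter, which were S100a8, S100a9, Retnlg, Csf3r, Mmp8, Clec4d and G0s2, while 33.5% of all 27025 mouse promoters hold one. The PU.1 pattern was found in S100a8 and Mmp8, and in 3.28% of all promoters. The NF-kB consensus was found in Csf3r and in 8.18% of all promoters. The 2 printed promoters on chromosome 3 lie close together, since S100a8 (ENSMUSG00000056054) lies at 90668978 to 90670035 and S100a9 (ENSMUSG00000056071) at 90692632 to 90695721 of that chromosome in GRCm38. Csf3r is on chromosome 4, Cxcr2 and G0s2 on 1, Il1b and Mmp9 on 2, Clec4d on 6, Mmp8 on 9 and Retnlg on 16, and all 10 are protein-coding genes. A match describes letters in the window and does not show that a factor binds there, and G0s2, which did not share the pattern of the other members, holds a C/EBP match, while Cxcr2 and Il1b, which did, hold none.

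Spots with at least 200 detected genes numbered 2234 in the sham, 2082 in the I/R and 1960 in the SBP section, with 21631280 to 30238530 UMIs in a section. The median depth was 14672 UMIs per spot in I/R, 10645 in sham and 10652 in SBP, and mitochondrial genes took 44.3% to 48.6% of the UMIs. Levels are given as CPM, the UMIs of a gene summed over the spots of a section per 1000000 UMIs of those spots. All brackets are 95% intervals of counting error alone, by the exact Poisson method for levels, by Clopper-Pearson for shares of spots and by a conditional exact binomial for ratios of levels. The median log2 ratio over all genes tested was 0.24 for I/R over sham, -0.17 for SBP over I/R and 0.082 for SBP over sham, so ratios of the members should be read against those shifts. In tissue RNA, fewer cells of a type and less RNA per cell cannot be told apart.

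S100a8 and S100a9, the 2 subunits of calprotectin, were the members with the largest ratios between I/R and sham. S100a8 had 256 UMIs in sham (10.2 CPM), 3262 in I/R (108 CPM) and 1120 in SBP (51.8 CPM). S100a9 had 302 UMIs in sham (12.0 CPM), 3017 in I/R (99.8 CPM) and 1175 in SBP (54.3 CPM). The order was sham, then SBP, then I/R for both genes, and the counting intervals of the 3 sections did not overlap. Their summed level was 9.35-fold higher in I/R than in sham [8.57 to 10.2] and 4.78-fold higher in SBP than in sham [4.35 to 5.25]. SBP held 0.511 of the I/R level [0.487 to 0.536]. In rank, S100a8 was 29th and S100a9 39th from the highest ratio among the 12231 genes with at least 50 UMIs in I/R and sham together, and they were 11th and 16th among 11768 genes for SBP over sham.

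**Figure D1:**
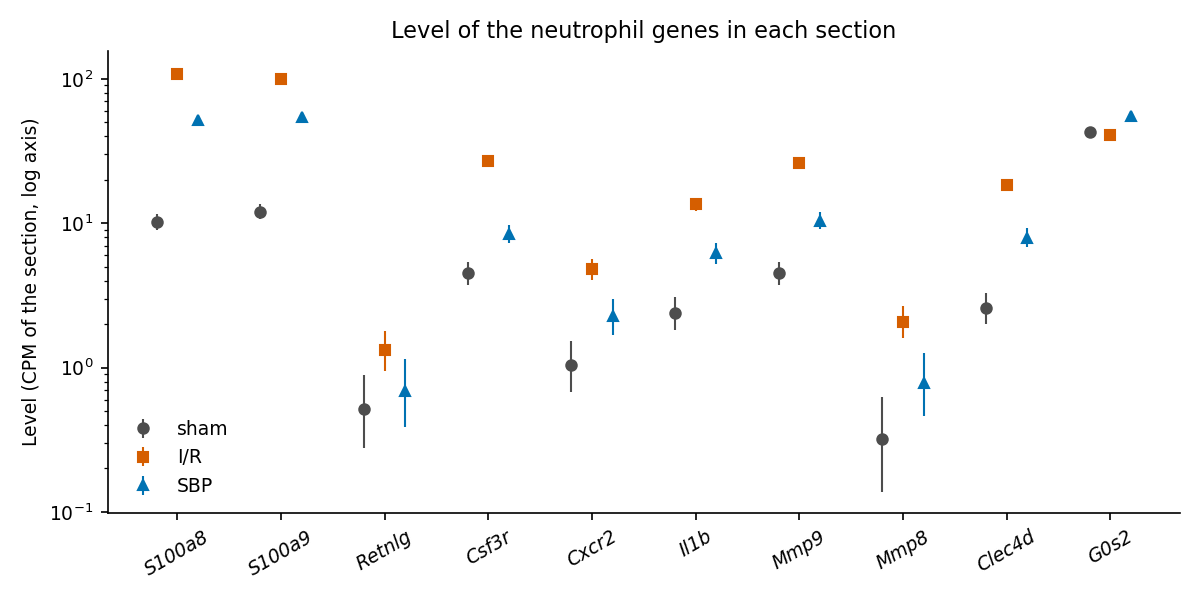
Levels of the 10 genes in the 3 sections, in CPM on a log axis, with bars for the 95% Poisson intervals of counting error. Of the 10, all but G0s2 were at least 2-fold higher in the I/R section than in sham, and the SBP section lay between them, while G0s2 stayed between 40.9 and 55.6 CPM.

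The receptors through which neutrophils are mobilised and guided followed the same order. Csf3r, the receptor for granulocyte colony-stimulating factor, had 113 UMIs in sham (4.50 CPM), 816 in I/R (27.0 CPM) and 183 in SBP (8.46 CPM). Its log2 ratio was 2.58 for I/R over sham [2.30 to 2.88] and -1.67 for SBP over I/R [-1.91 to -1.44], the lowest of the 10 members in the latter comparison and 127th from the lowest of 12151 genes. SBP therefore stood nearer to sham for Csf3r, at 1.88-fold [1.48 to 2.40], than it did for S100a8, at 5.08-fold [4.43 to 5.84]. Cxcr2, the receptor for the chemokines that draw neutrophils, had 26 UMIs in sham (1.04 CPM), 145 in I/R (4.80 CPM) and 49 in SBP (2.27 CPM). Its log2 ratio was 2.21 for I/R over sham [1.60 to 2.87] and -1.08 for SBP over I/R [-1.58 to -0.61]. Clec4d, a C-type lectin receptor of myeloid cells, had 65 UMIs in sham (2.59 CPM), 554 in I/R (18.3 CPM) and 172 in SBP (7.95 CPM). Clec4d ranked next after the S100 genes for I/R over sham, at a log2 ratio of 2.82 [2.45 to 3.22].

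The secreted products of the list showed the same order, Mmp8 and Retnlg on the fewest UMIs of the 10 members. Il1b, the cytokine interleukin-1 beta, had 60 UMIs in sham (2.39 CPM), 408 in I/R (13.5 CPM) and 134 in SBP (6.19 CPM). Mmp9, a gelatinase stored in neutrophil granules, had 113 UMIs in sham (4.50 CPM), 793 in I/R (26.2 CPM) and 225 in SBP (10.4 CPM). Log2 ratios of I/R over sham were 2.50 for Il1b [2.10 to 2.91] and 2.54 for Mmp9 [2.26 to 2.84], and those of SBP over I/R were -1.12 [-1.42 to -0.84] and -1.33 [-1.55 to -1.12]. Mmp8, the neutrophil collagenase, had 8 UMIs in the sham, 63 in the I/R and 17 in the SBP section, so that its log2 ratio of I/R over sham of 2.71 has an interval of 1.64 to 3.98. Retnlg, a resistin-like gene of mature mouse neutrophils, had 13 UMIs in the sham, 40 in the I/R and 15 in the SBP section. The log2 ratio of I/R over sham for Retnlg, 1.35 [0.42 to 2.38], was the lowest of the 9 members other than G0s2, but 1 sham spot held 6 of the 13 sham UMIs. Without that spot the ratio was 2.25 [1.07 to 3.65], above that of Cxcr2, and it was 2.09 [0.91 to 3.51] without the spot with the most Retnlg of each section, both comparisons being added after the data were seen. With all spots, its interval for SBP over sham, -0.75 to 1.61, included no difference.

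G0s2 stood apart. It encodes an inhibitor of adipose triglyceride lipase, the product of Pnpla2, and is expressed in fat-handling tissues as well as in neutrophils. G0s2 had 1068 UMIs in sham (42.5 CPM), 1236 in I/R (40.9 CPM) and 1203 in SBP (55.6 CPM). Its log2 ratio was -0.057 for I/R over sham [-0.18 to 0.063], with an interval that included 0 but lay below the median of all genes, 0.24. For SBP over I/R it was 0.44 [0.33 to 0.56], and G0s2 was the only member above 0 in that comparison. Pnpla2 itself stood at 256 CPM in the sham, 195 in the I/R and 339 in the SBP section, also highest in SBP.

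At least 2-fold higher in I/R than in sham were 9 of the 10 members, against 8.38% of the 12231 genes tested. At least 2-fold lower in SBP than in I/R were 7 of 10, against 4.53% of 12151 genes, with S100a9, Retnlg and G0s2 short of that fold. Retnlg, Cxcr2 and Mmp8 reached the minimum of 50 UMIs in these 2 comparisons only through the I/R section, where they are highest. At a minimum of 200 UMIs, which Retnlg, Cxcr2 and Mmp8 did not reach, the shares of all genes were 6.05% and 2.39%. At least 2-fold higher in SBP than in sham were 6 of the 8 members with 50 UMIs in the compared sections, against 1.48% of 11768 genes, with Csf3r and G0s2 below that fold and Retnlg and Mmp8 not counted. Among these 6, Cxcr2 had 26 UMIs in sham and 49 in SBP. It thus reached 50 UMIs only with the SBP section, where its level is higher. Relative to the median of all genes, the median log2 ratio of the members was 2.32 in the first of these comparisons, -0.94 in the second and 1.21 in the third. With TMM or median-of-ratios scaling, the number at least 2-fold lower in SBP than in I/R was 4 (Csf3r, Mmp9, Mmp8 and Clec4d), and S100a8, Cxcr2 and Il1b stood at log2 ratios between -0.97 and -0.90. Under these scalings the median log2 ratio over all genes was -0.01 and -0.0052. The share of 4.53% therefore does not apply to them, and their own share of all genes was not computed.

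The balance among the members differed between sections. Per 100 UMIs of S100a8 and S100a9 together, Csf3r had 20.3 UMIs in the sham, 13.0 in the I/R and 7.97 in the SBP section. The log2 ratio of this proportion was -0.70 for SBP over I/R [-0.95 to -0.46]. Mmp9 had 20.3, 12.6 and 9.80 UMIs per 100 in the same order of sections, with a log2 ratio of -0.37 for SBP over I/R [-0.60 to -0.14]. The intervals of Csf3r and Mmp9 thus lay below 0, so these 2 genes were lower in SBP by more than the calprotectin genes were. For Retnlg, Cxcr2, Il1b, Mmp8 and Clec4d the interval of SBP over I/R included 0. Between I/R and sham, the intervals of Retnlg, Csf3r, Cxcr2, Il1b and Mmp9 lay below 0 and those of Mmp8 and Clec4d included it. Retnlg differed most between I/R and sham among the members other than G0s2, at 0.637 against 2.33 per 100, a log2 ratio of -1.87 [-2.81 to -0.83], which was -1.10 [-2.27 to 0.30] without the sham spot with the most Retnlg. S100a8 and S100a9 also shifted against each other, with 0.848 UMIs of S100a8 for each UMI of S100a9 in the sham, 1.08 in the I/R and 0.953 in the SBP section.

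**Figure D2:**
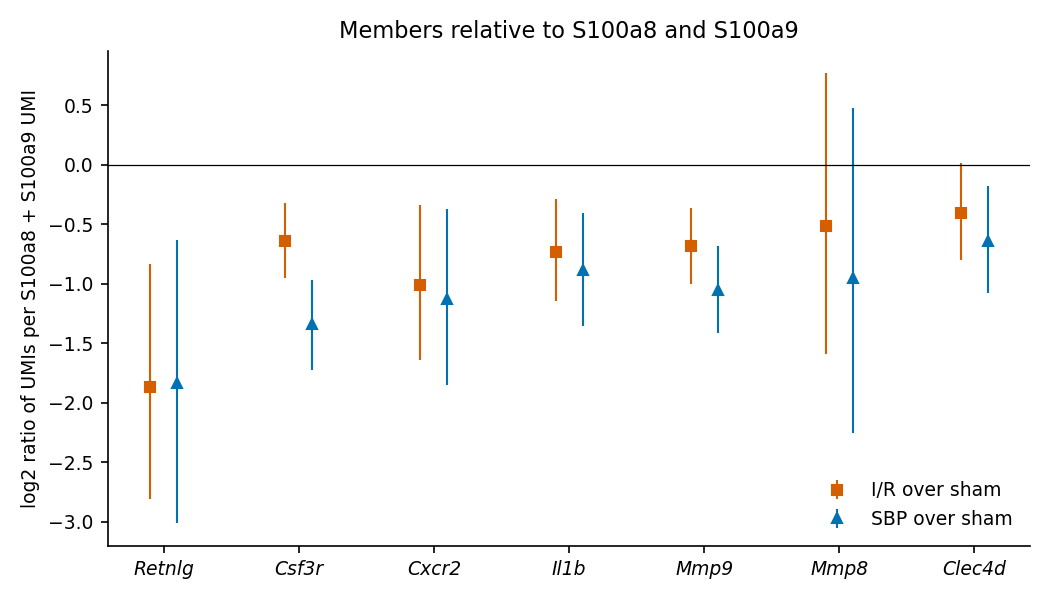
Log2 ratios over sham, for the I/R and the SBP section, of the UMIs of 7 members per UMI of S100a8 and S100a9, with bars for 95% counting intervals and a line at 0. All points lie below 0, and Csf3r is the gene whose 2 intervals do not overlap, at -0.64 in I/R and -1.34 in SBP.

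To compare how many spots held each message, 6500 UMIs were drawn at random from every spot, and 132 sham spots, 202 I/R spots and 213 SBP spots with fewer UMIs were not used. At that equal depth, a UMI of S100a8 or S100a9 was found in 7.18% of 2102 sham spots [6.12 to 8.37], 31.6% of 1880 I/R spots [29.5 to 33.8] and 16.8% of 1747 SBP spots [15.0 to 18.6]. Without thinning the shares were 10.4%, 48.3% and 25.7%. Csf3r was found in 1.86% of thinned sham spots, 11.3% of I/R spots and 2.98% of SBP spots, and unthinned in 3.89%, 21.3% and 6.33%. Mmp9 was found in 2.14%, 11.6% and 4.12% of thinned spots, and Clec4d in 1.14%, 8.83% and 2.98%. Unthinned, Mmp9 was found in 3.80%, 21.2% and 7.35% of spots and Clec4d in 2.33%, 16.7% and 6.17%. These genes were thus detected over a larger part of the I/R section than of either other section. The rarer members kept this order for Il1b, with 1.14%, 6.65% and 2.18%, and for Cxcr2, with 0.571%, 2.50% and 1.20%, where the unthinned shares were 2.15%, 12.4% and 4.23% for Il1b and 0.985%, 5.52% and 1.99% for Cxcr2. Retnlg, at 0.190% to 0.585%, and Mmp8, at 0.229% to 1.54%, were found in few spots of any section. G0s2 was found in 23.4% of thinned sham spots, 22.0% of I/R spots and 29.3% of SBP spots, and unthinned in 34.4%, 39.6% and 41.3%.

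The UMIs of the S100 genes were gathered in few spots, most narrowly in sham. The 1% of sham spots with the most S100a8 held 48.8% of its UMIs, against 15.9% in I/R and 27.9% in SBP. Put the other way, 23 sham spots, 133 I/R spots and 59 SBP spots held 50% of the S100a8 UMIs of their section. G0s2 was spread evenly by comparison, with 8.80%, 8.01% and 7.65% of its UMIs in the top 1% of spots. The ratio of variance to mean of thinned UMIs per spot was 2.75 for S100a8 in the sham, 5.27 in the I/R and 4.25 in the SBP section, where the median gene stood at 1.07 in each section, and it was 1.07 to 1.14 for G0s2. This ratio grows with the level of a gene, so Morisita's index, which compares how often a pair of UMIs shares a spot with an even spread, was added after the data were seen. The index was 27.3 for S100a8 in the sham, 7.13 in the I/R and 13.7 in the SBP section, against medians of 1.53, 1.52 and 1.48 over all genes, and 1.27 to 1.49 for G0s2.

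One sham spot stood out for Retnlg and Camp. It held 22 of the 256 S100a8 UMIs of the sham section, 23 of the 302 S100a9 UMIs, 6 of the 13 Retnlg UMIs and 5 of the 7 UMIs of Camp, the cathelicidin of secondary granules. The same spot had none of Csf3r, Cxcr2, Il1b, Mmp9, Mmp8 or Clec4d among its 17555 UMIs. It was singled out after its values were seen.

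S100a9 was found more often in spots with S100a8 than in spots without it, though many spots held only 1 of the 2 genes. In sham, 31 thinned spots held both, 51 S100a8 only and 69 S100a9 only. In I/R these numbers were 288, 158 and 149, and in SBP 111, 89 and 93. Among thinned spots with S100a8, 37.8% also held S100a9 in the sham, 64.6% in the I/R and 55.5% in the SBP section, against 3.42%, 10.4% and 6.01% of the spots without S100a8. Spots with at least 4 thinned UMIs of the 2 genes together, the smallest number that at most 1% of sham spots reach, are called S100-rich here. There were 21 in sham (0.999%), 226 spots of I/R (12.0% [10.6 to 13.6]) and 86 spots of SBP (4.92% [3.96 to 6.04]). The rule fixes the sham share. Just below the threshold, at 3 UMIs, lay 8, 50 and 21 spots, and 7, 36 and 19 spots lay at it. S100-rich spots of I/R were shallower than the others, at a median of 11785 against 15521 UMIs, and mitochondrial genes took 24.5% against 47.2% of their UMIs. In SBP the medians were 11181 and 11178 UMIs, and the mitochondrial shares 41.0% and 47.0%. S100-rich spots held 70.5% of the S100a8 and S100a9 UMIs of the thinned spots in I/R and 64.5% in SBP.

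The other members, which the definition did not use, were higher in S100-rich spots than elsewhere in I/R and SBP, except G0s2 and, on 2 UMIs in S100-rich spots of SBP, Mmp8, whose interval included no difference. These levels use all UMIs of the spots, with no thinning. In I/R, Csf3r stood at 128 CPM in S100-rich spots and 9.73 CPM in the others, a log2 ratio of 3.71 [3.48 to 3.95]. Log2 ratios of the 6 further genes in I/R ran from 3.30 for Clec4d to 3.80 for Mmp8. In SBP, Csf3r had a log2 ratio of 4.46 [3.96 to 4.97], Mmp9 4.11 [3.65 to 4.57], Il1b 3.96 [3.28 to 4.63] and Clec4d 3.20 [2.62 to 3.76]. Among the members other than S100a8 and S100a9, Cxcr2 had the highest ratio of that section, 6.62 [5.34 to 8.17]. Of its 37 UMIs in these SBP spots, 31 fell in the 86 S100-rich ones. Cxcr2 was below the minimum of 50 UMIs there and is not among the genes tested in SBP. G0s2 went the other way, with 19.8 CPM in S100-rich spots and 44.0 CPM in the other spots of I/R, a log2 ratio of -1.15 [-1.56 to -0.77], and -0.16 in SBP [-0.59 to 0.24]. Among the 8 members that did not define the spots, at least 2-fold higher in S100-rich spots were 4 of 5 tested in sham, 6 of 7 in I/R and 4 of 5 in SBP, against 27.6%, 42.6% and 15.3% of all genes tested, and G0s2 was the exception in each section. Mmp8 had 34 UMIs in S100-rich and 22 in other spots of I/R, and Il1b 36 and 44 in SBP. These 2 thus reached 50 UMIs only with the S100-rich spots, where their levels are higher. Without mitochondrial UMIs in the totals, the counts of members were again 4 of 5, 6 of 7 and 4 of 5, against 19.1%, 18.4% and 10.8% of all genes. S100-rich spots thus differed from the rest in many genes. Genes of the injured heart, a list of Ankrd1, Nppb, Timp1, Tgfbi, Ccn2, Spp1, Lgals3 and Xirp2, were among them. At least 2-fold higher in S100-rich spots of I/R were 6 of these 8, and 8 of 8 reached that fold in SBP. The sham section had 5 of 8, so the rise was not particular to the injured hearts. Median log2 ratios of the list were 1.86 for I/R, 1.83 for SBP and 1.89 for sham. Without mitochondrial UMIs in the totals, the counts for the same order of sections were 5, 7 and 4 of 8.

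**Figure D3:**
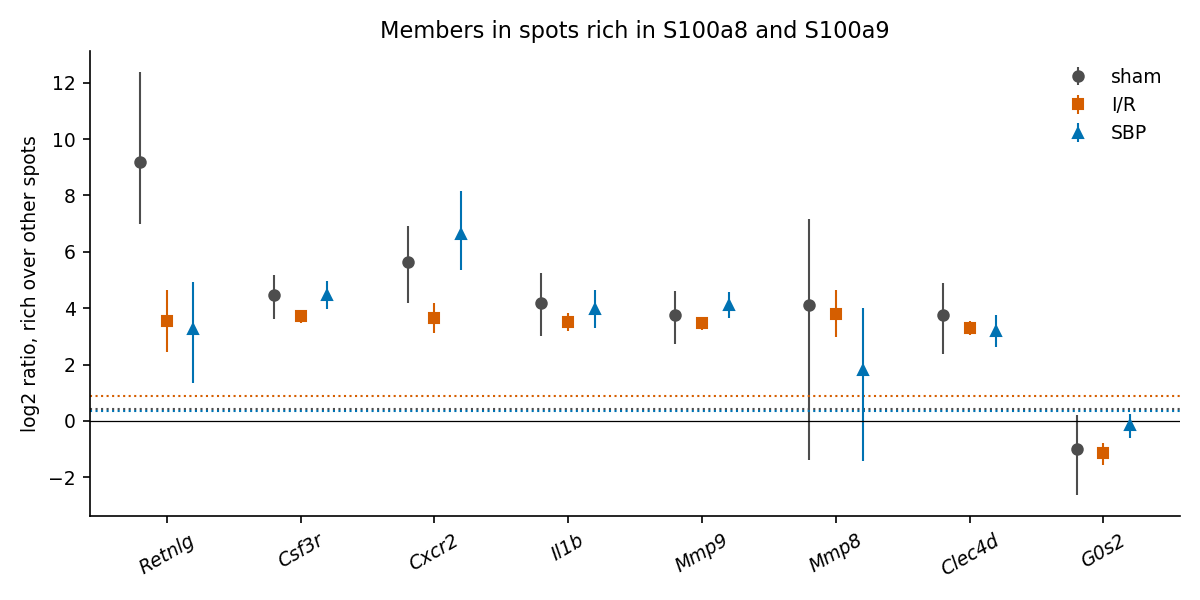
Log2 ratio of the level of each other member in S100-rich spots over the other spots of the same section, with 95% counting intervals and a dotted line for the median of all genes in each section. The intervals of 6 genes lie above those medians in all 3 sections, those of Mmp8 are wide on 1 and 2 UMIs in the S100-rich spots of sham and SBP, and G0s2 lies below 0.

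Detection of the other members climbed with the number of S100 UMIs in a spot. In I/R, at least 1 of the 7 members other than S100a8, S100a9 and G0s2 was found in 10.7% of 1285 spots without an S100 UMI, 26.2% of 240 spots with 1, 65.1% of 129 spots with 2 or 3, 82.0% of 128 spots with 4 to 7 and 93.9% of 98 spots with 8 or more. In SBP the same shares were 5.02%, 17.5%, 32.1%, 66.0% and 87.9%. Csf3r was found in 3.35% of I/R spots of the lowest and 68.4% of the highest of these classes, against 1.03% and 39.4% of SBP spots. Cxcr2 was found in 0 of 1454 SBP spots without an S100 UMI, which allows a share of up to 0.206% at 3 counts (Clopper-Pearson upper bound 0.253%), and in 12 of the 33 SBP spots with 8 or more. G0s2 was found in 25.0% of I/R spots of the lowest class and 11.2% of those of the highest, and in 29.7% and 30.3% of SBP spots. The shares of the 7 genes in spots without an S100 UMI are 1 background for those in S100-rich spots. Genes outside the list are another. From other to S100-rich spots of I/R, detection of Ccr2 went from 11.1% to 59.7% and of Fn1 from 36.0% to 90.7%. Csf3r went from 5.62% to 52.7%, so such a climb is not particular to the members.

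**Figure D4:**
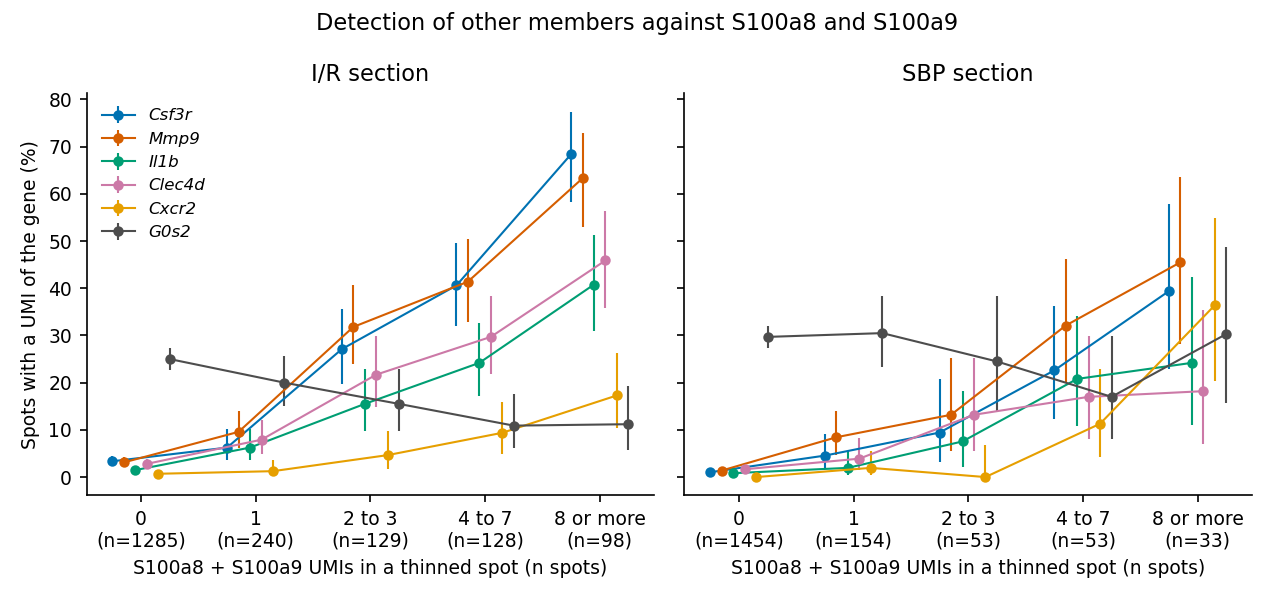
Percent of thinned spots with a UMI of each of 6 members, by the number of S100a8 and S100a9 UMIs in the spot, in the I/R and the SBP section, with bars for exact binomial 95% intervals and the number of spots under each class. Csf3r reaches 68.4% in I/R and 39.4% in SBP in the class of 8 or more, while G0s2 shows no such climb.

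Within S100-rich spots, the SBP section had less Csf3r, Il1b and Clec4d than the I/R section. Log2 ratios of SBP over I/R in these spots were -0.85 for Csf3r [-1.23 to -0.48], -0.89 for Il1b [-1.44 to -0.37], -0.67 for Mmp9 [-1.04 to -0.31] and -1.13 for Clec4d [-1.65 to -0.64]. Cxcr2 was at 30.1 CPM in S100-rich spots of SBP and 24.6 CPM in those of I/R, a log2 ratio of 0.29 [-0.37 to 0.91], whose interval included no difference. G0s2 was higher in S100-rich spots of SBP, with a log2 ratio of 1.35 [0.78 to 1.91]. In the other spots Cxcr2 had the lowest ratio, -2.69 [-4.20 to -1.47], resting on 6 UMIs in SBP and 52 in I/R, and Csf3r stood at -1.60 [-2.02 to -1.20]. For Csf3r, Il1b, Mmp9 and Clec4d the interval lay below 0 in both kinds of spots. Mitochondrial genes took 24.5% of the UMIs of S100-rich spots in I/R and 41.0% in SBP, so the totals behind these levels differ. Without mitochondrial UMIs in the totals, a comparison added after the data were seen, the ratios in S100-rich spots were -0.49 for Csf3r [-0.88 to -0.13], -0.53 for Il1b [-1.09 to -0.012] and -0.77 for Clec4d [-1.29 to -0.29], while that of Mmp9, -0.31 [-0.68 to 0.043], no longer excluded 0.

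Monocyte transcripts followed the same order of sections and spots as the members. The 7 monocyte markers summed to 90.2 CPM in the sham, 382 in the I/R and 172 in the SBP section. Fn1, counted below among matrix genes, made up 50.4, 229 and 94.2 CPM of these sums. Each of the 7 was lowest in sham and highest in I/R. Of the list, 6 of 7 were at least 2-fold higher in I/R than in sham, against 8.38% of all genes. Among these 6, Ly6c2 had 31 UMIs in sham and reached 50 UMIs only through the I/R section. In SBP, 2 of 7 (Ccr2 and Fn1) were at least 2-fold lower than in I/R, against 4.53% of all genes. All 7 monocyte markers (Ccr2, Ly6c2, Vcan, Cd14, Plac8, Chil3 and Fn1) were at least 2-fold higher in S100-rich spots of I/R, 6 of 6 tested were in sham, and 6 of 7 were in SBP, with Cd14 at a log2 ratio of 0.97. The shares over all genes tested were 42.6% in I/R, 27.6% in sham and 15.3% in SBP. The sum of the monocyte list was 1529 CPM in S100-rich and 215 CPM in other spots of I/R, and 547 against 129 CPM in SBP. Fn1 gave 921 and 129 CPM of these sums in I/R, and 302 and 71.6 CPM in SBP. All 8 macrophage markers were at least 2-fold higher in S100-rich spots of sham and of I/R, against 27.6% and 42.6% of all genes tested. Without mitochondrial UMIs in the totals these counts were 5 of 8 and 6 of 8, against 19.1% and 18.4%. Their sum was 1495 CPM in S100-rich and 454 CPM in other spots of I/R, where C1qa, C1qb and C1qc of the complement C1q complex had log2 ratios of 1.37 to 1.80. In SBP the sum was 520 against 420 CPM, 3 of the 8 reached that fold, against 15.3% of all genes, and the C1q genes stood at -0.18 to 0.099. T and B cell markers summed to at most 6.15 CPM in any of these classes, and the 6 cardiomyocyte markers had median log2 ratios of -1.21 in I/R and -0.61 in SBP. Ly6g, the surface antigen by which mouse neutrophils are usually sorted, had 0 UMIs in the sham, 1 in the I/R and 0 in the SBP section, so the neutrophil label rests on the other genes. The part of monocytes in the levels of the members was not tested for any of them. S100a8, S100a9, Il1b and Clec4d are among those that monocytes also express.

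Genes that work beside the members were counted from lists of their pathways. Of the surface and adhesion genes with at least 50 UMIs, 8 of 8 were at least 2-fold higher in I/R than in sham. At least 2-fold lower in SBP than in I/R were 2 of 9. The shares over all genes were 8.38% and 4.53%. The 2 genes lower in SBP were Itgam, a subunit of the integrin Mac-1, and Selplg, the adhesion ligand PSGL-1, with log2 ratios of -1.03 and -1.21. Clec4e, a lectin receptor that pairs with the product of Clec4d, stood at 0.438 CPM in the sham, 5.19 in the I/R and 3.79 in the SBP section. Of 18 other mature neutrophil genes, 11 of 14 tested were at least 2-fold higher in I/R than sham, against 8.38% of all genes. Among them were Slfn4, Slpi, Hp, Ptgs2 and Il1f9. At least 2-fold lower in SBP than in I/R were 3 of 17 tested (Ifitm6, Pglyrp1 and Ptgs2), against 4.53% of all genes. In that comparison 1 was at least 2-fold higher (Acod1), against 41 of 12151 genes. Acod1 had 51 UMIs in the 2 sections together, 38 of them in SBP, and reached 50 UMIs only through that section. Clec4e, Trem1, Slfn4, Slpi, Ptgs2, Il1f9, Pglyrp1, Ccl3, Ifitm6 and Mxd1 had 5 to 33 UMIs in sham. For I/R over sham they thus reached 50 UMIs only through the I/R section. Ifitm6, Pglyrp1 and Ptgs2 had 21 to 35 UMIs in SBP, so they reached 50 UMIs only through I/R in that comparison as well. Lrg1 and Msrb1 from that list were at 131 and 123 CPM already in sham and within 2-fold of it in the other sections.

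In the SBP section, most chemokines that bind CXCR2 stood nearer to their I/R level than the receptor did. All 5 tested genes among CXCR2 ligands and Csf3 were at least 2-fold higher in I/R than in sham, against 8.38% of all genes. Among them, Cxcl2, Cxcl3 and Ppbp had 11, 10 and 25 UMIs in sham. They reached the minimum for testing only through the I/R section, where they are high. At least 2-fold lower in SBP than in I/R was 1 of 5, against 4.53% of all genes. That gene was Ppbp, a platelet chemokine, with 0.995 CPM in the sham, 5.56 in the I/R and 1.90 in the SBP section. With 41 UMIs in SBP, Ppbp reached the minimum only through I/R in that comparison as well. Cxcl5 stood at 23.8 CPM in the sham, 68.1 in the I/R and 64.6 in the SBP section, and Cxcl1 at 3.66, 11.6 and 10.2 CPM. Cxcl2 stood at 0.438, 2.65 and 4.21 CPM, and Cxcl3 at 0.398, 2.98 and 1.90 CPM. The log2 ratio of SBP over I/R was thus -0.075 for Cxcl5 and -0.18 for Cxcl1, against -1.08 for Cxcr2. Cxcl5 was itself found with the S100 genes, at 281 CPM in S100-rich and 38.1 CPM in other spots of I/R, and at 412 against 41.8 CPM in SBP.

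In the interleukin-1 pathway, 4 of 8 tested genes were at least 2-fold higher in I/R than in sham, against 8.38% of all genes. These were Il1r2, the decoy receptor, at 1.15 CPM in the sham, 8.04 in the I/R and 4.11 in the SBP section, Il1rn, the receptor antagonist, at 1.87, 12.6 and 8.41 CPM, the accessory receptor Il1rap and the inflammatory caspase Casp4. Il1r2, Il1rn and Casp4 had 29, 47 and 44 UMIs in sham. They reached the minimum for testing only through the I/R section, where they are high. Casp4 was also the 1 gene of 9 tested that was at least 2-fold lower in SBP than in I/R, against 4.53% of all genes. Its log2 ratio was -1.22. With 43 UMIs in SBP, Casp4 reached the minimum only through I/R in that comparison as well. Of the receptors reported for S100A8 and S100A9, Tlr4 was at least 2-fold higher in I/R than in sham (log2 ratio 1.31) and short of 2-fold lower in SBP than in I/R (log2 ratio -0.96). Cd36 and Bsg, both abundant in heart muscle, were within 2-fold in each comparison.

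Granule genes made before neutrophils leave the marrow were close to absent. Elane had 0 UMIs in all 3 sections, where 3 UMIs, the number that a count of 0 allows, correspond to 0.0992 to 0.139 CPM and the exact Poisson upper bounds to 0.122 to 0.171 CPM. Mpo had 1 UMI in all, Ctsg 2, Ngp 1, Ltf 4 and Camp 10, of which 5 were in the single sham spot with the most Retnlg. Prtn3 had 4 UMIs in the sham, 18 in the I/R and 6 in the SBP section. Lcn2 was the exception, at 73.9 CPM in the sham, 84.4 in the I/R and 123 in the SBP section, and its log2 ratio in S100-rich over other spots differed between sections, being -0.95 for the I/R section [-1.21 to -0.70], 0.69 for SBP [0.47 to 0.90] and 0.59 for sham [-0.026 to 1.15].

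Il1b in the SBP section leaned on a few spots. The SBP spot with the most Il1b held 19 of the 134 UMIs of the section, together with 45 UMIs of S100a8, 30 of S100a9, 13 of Mmp9, 26 of Il1rn, 17 of Cxcl2, 15 of Ccl4 and 11 of Clec4e. Mitochondrial genes took 7.97% of its 6083 UMIs. The 3 SBP spots with the most Il1b held 22.4% of the Il1b UMIs, 35.2% of the Cxcl2 UMIs and 31.6% of the UMIs of Acod1, the gene of itaconate synthesis, which had 1 UMI in the sham, 13 in the I/R and 38 in the SBP section. Without those 3 spots in each section, a comparison added after the data were seen, the log2 ratio of SBP over I/R for Il1b was -1.39 instead of -1.12.

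The S100 genes were most concentrated in the shallow spots of the injured hearts. In spots with fewer than 6500 UMIs, which are not in the thinned comparisons, S100a8 and S100a9 together stood at 50.5 CPM in the sham, 1256 in the I/R and 554 in the SBP section. In spots with at least 15000 UMIs they stood at 28.2, 139 and 107 CPM. Shallow spots held 18.1% of the S100 UMIs of I/R on 2.99% of all its UMIs, and 23.5% of those of SBP on 4.50%. Without thinning, an S100 UMI was found in 90.1% of the shallow I/R spots and 46.7% of the deepest, although the shallow spots had the fewest UMIs. Csf3r and Mmp9 behaved as the S100 genes did, with log2 ratios of shallow over deeper spots of 3.26 and 2.88 in I/R and 2.88 and 2.92 in SBP. G0s2 was lower in shallow spots of I/R, with a log2 ratio of -1.23 [-2.05 to -0.53]. Mitochondrial genes took 23.8% of the UMIs in shallow I/R spots against 45.8% in the deepest, and the cardiomyocyte gene Myh6 stood at 2115 against 5002 CPM. In SBP the mitochondrial shares were 38.8% and 46.0%, and Myh6 stood at 5369 against 4996 CPM, so it was not lower in the shallow spots. The part of depth and of muscle RNA content in these levels was not tested. In spots with at least 6500 UMIs alone, a comparison added after the data were seen, 3 members (S100a8, S100a9 and Clec4d) in place of 6 were at least 2-fold higher in SBP than in sham, and the log2 ratio of SBP over sham for Il1b was 0.66. The share of all genes in those spots was not computed.

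**Figure D5:**
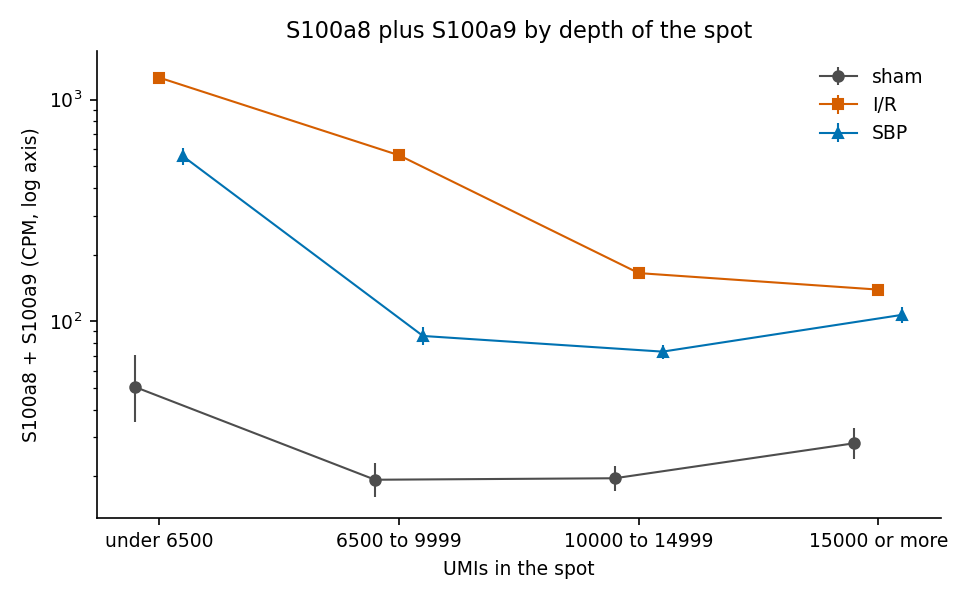
Summed level of S100a8 and S100a9 by depth class of the spots in each section, in CPM on a log axis, with 95% Poisson intervals of counting error. In I/R the level stands at 1256 CPM in the lowest class and 139 CPM in the highest, and in SBP at 554 and 107 CPM, while in sham the lowest class stands at 50.5 CPM.

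Across the 1880 thinned I/R spots, the genes whose UMIs correlated most with those of S100a8 and S100a9 were Actb (r = 0.701), Spp1 (0.680), Actg1 (0.657), Tgfbi (0.656), Ccl6 (0.653), Fxyd5 (0.642), Fn1 (0.630), Tmsb4x (0.624), Ctsb (0.624) and Cfl1 (0.623), among 4660 genes with a median r of 0.113. They include cytoskeletal genes (Actb, Actg1, Tmsb4x, Cfl1), matrix genes (Spp1, Tgfbi, Fn1) and Ccl6, a chemokine of myeloid cells. Csf3r stood at r = 0.551, 50th in the order, Mmp9 at 0.539 and Clec4d at 0.435, while G0s2 stood at -0.115. Across the 1747 SBP spots the highest were Cxcl5 (0.454), Spp1 (0.420), Actb (0.380), Ccl7 (0.376), Rtn4 (0.367), Timp1 (0.365), Actg1 (0.351), Rpsa (0.343), Ccl2 (0.334) and Ankrd1 (0.333), among 3964 genes with a median r of 0.0279. The SBP list thus held the chemokine genes Cxcl5, Ccl7 and Ccl2, the metalloproteinase inhibitor Timp1 and the stress gene Ankrd1, beside the actins. The lowest were mitochondrial transcripts in I/R, with mt-Co1 at -0.732, and Myl2 (-0.475), Myh6 (-0.468), Mb (-0.443), Slc25a4 (-0.435) and Tnni3 (-0.425) in SBP, among which Myl2, Myh6 and Tnni3 encode sarcomere proteins, Mb myoglobin and Slc25a4 a mitochondrial ADP/ATP carrier. The spots of a section share a library, so these are descriptions of the pattern across spots, in Pearson's r of the natural logarithm of 1 plus the thinned UMIs.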

How the data were processed

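Visium libraries of 1 heart section per condition were used, and the study's single-nucleus data were not used here. The authors deposited raw UMI counts for each gene in each spot, made with Space Ranger 1.3.0 and build mm10 per the submitters' processing notes. The paper's methods give another version and a human reference, while the matrices list mouse genes, of whose identifiers 32158 were found in GENCODE M21 (GRCm38). Sections were grouped by their labels.

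Spots with at least 200 detected genes were kept, which removed 3 sham spots, 1 I/R spot and 2 SBP spots. The sham section held 25118258 UMIs, I/R 30238530 and SBP 21631280. CPM divides by all UMIs, and thinning drew 6500 UMIs per spot without replacement with a fixed seed. A gene counted as tested with at least 50 UMIs over the spots compared. Ratios over S100-rich spots used unthinned UMIs. With 1 section per condition no test was run, and intervals at the 95% level cover counting error only. Spots share barcodes between sections (1093 occur in all 3) because barcodes name positions on the array, and spot positions were not used. No clustering, deconvolution or doublet detection was run.

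The members, gene lists, motifs and comparisons were chosen with earlier results of these data known. A gene of the surface and adhesion list is not reported here and was left out of its counts. The genes named are the 10 members, genes of the lists with at least 50 UMIs or at 0 and those a count turns on, and the 10 genes most correlated with S100a8 and S100a9 in I/R and in SBP. Alternatives were other scalings, spot filters, denominators, thinning depths, definitions of S100-rich spots and exclusions of spots. Python 3.11.15, numpy 2.4.6, scipy 1.17.1, pandas 2.3.3, matplotlib 3.10.9 and R 4.3.3 with edgeR 4.0.16 (TMM factors only) were used. Interval and ratio code was checked on simulated data.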

Additional observations from a re-analysis of the deposited data

Results flagged for a closer look

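Spots with fewer than 6500 UMIs, which the comparisons at equal depth leave out, held a signal of S100a8 and S100a9 above that of the same kind of spots in sham. Their summed level there was 1256 CPM in the 202 shallow I/R spots and 554 CPM in the 213 shallow SBP spots, against 50.5 CPM in the 132 shallow sham spots.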

How the results depend on the processing

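Of 698 recomputed values for 121 results, 555 were log2 ratios, and none of the 455 whose reported ratio was at least 1 in size changed sign. Of the other 100, 3 did, all for SBP over I/R in S100-rich spots without mitochondrial UMIs in the totals, where S100a8 went from -0.31 to 0.05, S100a9 from -0.043 to 0.31 and Retnlg from -0.34 to 0.012. The order of the sections by share of spots turned without thinning for G0s2 between sham and I/R (23.4% and 22.0% thinned, 34.4% and 39.6% unthinned) and for Mmp8 between sham and SBP (0.238% and 0.229% thinned, 0.358% and 0.765% unthinned, 0.0448% and 0.102% at 1000 UMIs). For the summed level of S100a8 and S100a9, the log2 ratio of I/R over sham (3.22) was 2.99 with TMM and with median-of-ratios scaling, 3.78 with equal weight per spot, 3.73 without the top 1% of spots, 3.03 in spots with at least 6500 UMIs and 4.64 in shallower ones. That of SBP over I/R (-0.97) was, in the same order, -0.81, -0.81, -1.14, -1.13, -1.04 and -1.18. That of SBP over sham (2.26) was 2.64 with equal weight per spot, 2.59 without the top 1%, 1.99 in deeper and 3.46 in shallower spots. Members at least 2-fold lower in SBP than in I/R numbered 4 in place of 7 with TMM and with median-of-ratios scaling (Csf3r, Mmp9, Mmp8 and Clec4d). In shallow spots they also numbered 4, but were S100a8, S100a9, Csf3r and Mmp9. Members at least 2-fold higher in SBP than in sham numbered 3 in place of 6 in deeper spots. The shares of all genes under these settings were not computed. The share of spots with S100a8 or S100a9, thinned to 1000 UMIs and not thinned, was 1.93% and 10.4% for the sham section, 17.4% and 48.3% for I/R, and 8.38% and 25.7% for SBP. Without thinning, the variance over the mean of the summed genes came to 7.84 (sham section), 15.2 (I/R) and 13.1 (SBP). The share of S100-rich spots in I/R was 18.9% with a threshold set so that 5% of sham spots or fewer pass, 9.15% by S100a8 alone, 8.51% by S100a9 alone, 16.7% by unthinned CPM and 6.88% with thinning to 1000 UMIs. For SBP it was 7.96%, 2.86%, 3.84%, 7.30% and 2.81%. The cause of these shifts was not tested. The settings by spot depth, the thinning of S100-rich spots to 1000 UMIs, another draw of the thinning, the exclusion of the spots with the most Il1b or Retnlg and the ratios within S100-rich spots without mitochondrial UMIs were chosen after seeing the data. A member with 0 UMIs in a section under a setting gave no value there.

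No paired analysis was possible because there is 1 section per condition. No leave-one-out setting exists either, and neither the spread between animals nor that between sections of 1 heart is known. Retnlg, with 13 to 40 UMIs in a section, carries a counting interval too wide for an order between SBP and sham, and that of Mmp8 for the log2 ratio of SBP over sham, 0.013 to 2.72, reaches close to 0. The place at which each heart was cut and its treatment cannot be told apart.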
